A study of Homo sapiens with 4 samples.

Results

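The genes described are 39 markers of DNA synthesis and cell division, 19 of S phase and 20 of mitosis, chosen by name from the 34484 gene symbols in the count files. RNA was sequenced in 4 libraries from A549, a human cell line of lung adenocarcinoma origin. The dex group holds 2 libraries of cells given 100 nM dexamethasone for 3 h, a synthetic ligand of the glucocorticoid receptor. The etoh group holds 2 libraries of cells given 0.02% ethanol, its vehicle, for 3 h. All cells were grown in F12K medium to 90% confluence, and no label names a genetic change in either group. Whether a group's libraries were made from separate cultures is not stated, and p-values therefore reflect spread among the libraries at hand, possibly technical. The question put to the 39 genes was how small a difference after 3 h the data could resolve.

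Cells license their replication origins in G1 by loading the ring of MCM proteins, and they fire those origins in S phase once cyclin E with its kinase and the E2F transcription factors have switched on the replication genes. Genes of mitosis carry promoter elements called CHR and CCAAT boxes; the DREAM complex represses them through the CHR in resting cells and G1, and B-MYB with the MuvB proteins and FOXM1 activate them in G2. Glucocorticoids slow the growth of some epithelial lines, and the transcripts of both gene groups are scarce in cells that have left the cycle. In RNA from a whole culture, fewer cells in a phase and less RNA per cell cannot be told apart.

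The promoters below are shown because they belong to the only gene called changed, MCM2, to 2 other S phase genes, MCM6 and RRM1, and to 3 mitosis genes with the element typical of that group. They are RefSeq sequences of GRCh38.p14, each written 5′ to 3′ on the strand of its gene. MCM2 is given from before its RefSeq start to 20 bases from it (chr3:127598291-127598430, plus strand). The others are the 150 bases before the start, at chr2:135876444-135876593 on the minus strand for MCM6 and on the plus strand at chr11:4094535-4094684 for RRM1, chr15:59104996-59105145 for CCNB2, chr1:43358831-43358980 for CDC20 and chr15:40160919-40161068 for BUB1B. Capitals mark matches on either strand to an E2F element (TTNNCGC), a CHR (TTTGAA) or a CCAAT box (CCAAT), and matches that overlap run together.
MCM2: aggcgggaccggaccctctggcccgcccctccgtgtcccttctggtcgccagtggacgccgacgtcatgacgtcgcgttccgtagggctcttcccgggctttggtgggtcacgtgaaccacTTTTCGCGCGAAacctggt
MCM6: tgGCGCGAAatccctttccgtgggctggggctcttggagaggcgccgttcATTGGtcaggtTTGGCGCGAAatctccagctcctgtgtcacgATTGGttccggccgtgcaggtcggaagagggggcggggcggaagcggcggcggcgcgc
RRM1: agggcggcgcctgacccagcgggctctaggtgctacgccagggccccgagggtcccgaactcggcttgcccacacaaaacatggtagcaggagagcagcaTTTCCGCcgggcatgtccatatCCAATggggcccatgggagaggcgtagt
CCNB2: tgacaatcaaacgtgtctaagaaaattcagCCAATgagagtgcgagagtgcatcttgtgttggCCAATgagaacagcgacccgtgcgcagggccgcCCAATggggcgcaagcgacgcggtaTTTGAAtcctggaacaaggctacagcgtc
CDC20: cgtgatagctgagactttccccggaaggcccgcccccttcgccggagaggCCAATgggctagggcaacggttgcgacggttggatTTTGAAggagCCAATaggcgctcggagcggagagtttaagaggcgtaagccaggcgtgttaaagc
BUB1B: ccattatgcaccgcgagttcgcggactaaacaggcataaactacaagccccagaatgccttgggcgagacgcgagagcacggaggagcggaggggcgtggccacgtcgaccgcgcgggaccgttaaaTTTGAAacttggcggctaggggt
In MCM2 the 3 overlapping E2F matches begin within 10 bases after the RefSeq start, and its window holds no CHR or CCAAT match. MCM6 has E2F and CCAAT matches side by side, and RRM1 has 1 of each in the bases shown. CCNB2 carries 3 CCAAT boxes ahead of a CHR in these bases, CDC20 has a CHR between a pair of CCAAT boxes, and BUB1B has a CHR alone.

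Each library held between 9764159 and 11887526 reads aligned to named transcripts, and 17.2% to 18.7% of its reads were unaligned. The 2 libraries of a group differed by more than sampling noise, so none was a duplicate. The known glucocorticoid targets FKBP5, PER1 and TSC22D3 were higher in dex by 3.39, 3.88 and 4.46 on the log2 scale, a check of the treatment labels. All 7 epithelial markers had reads, with KRT8, KRT18 and KRT7 the most abundant; their summed reads were 83772 and 81991 in dex and 41444 and 58461 in etoh, and the part of that difference in the results was not tested. Of the 6 fibroblast markers 5 had reads, summing to 182 and 269 in dex and 151 and 217 in etoh. Most were of COL1A1, at 16.7 and 21.3 CPM in dex and 10.4 and 15.4 CPM in etoh, while COL1A2 was at 0. Immune and endothelial markers were near 0, with 32 and 24 summed reads in dex and 18 and 25 in etoh for immune cells (CD3E at 0), and 5 and 7 in dex and 3 and 3 in etoh for endothelium (VWF at 0).

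All 39 genes had reads and passed the count filter with 14716 genes tested in all. Reads were summed over the transcripts of a gene and are given as CPM, scaled to the aligned total of each library, and fold changes come from the quasi-likelihood test of edgeR, called at a p of 0.05 adjusted by Benjamini-Hochberg over the whole table. Of the 39 genes 1 was called, MCM2, which rose; 0 were called lower by edgeR, DESeq2 or limma-voom. Over all tested genes 11.5% were called, 7.12% higher in dex and 4.34% lower. At an unadjusted p under 0.05 there were 2 members higher and 2 lower, 10.3% of the 39, against 23.6% of all tested genes. The median log2 fold change was 0.024 for the S phase genes and −0.042 for the mitosis genes, beside 0.0018 for all tested genes.

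**Figure D1:**
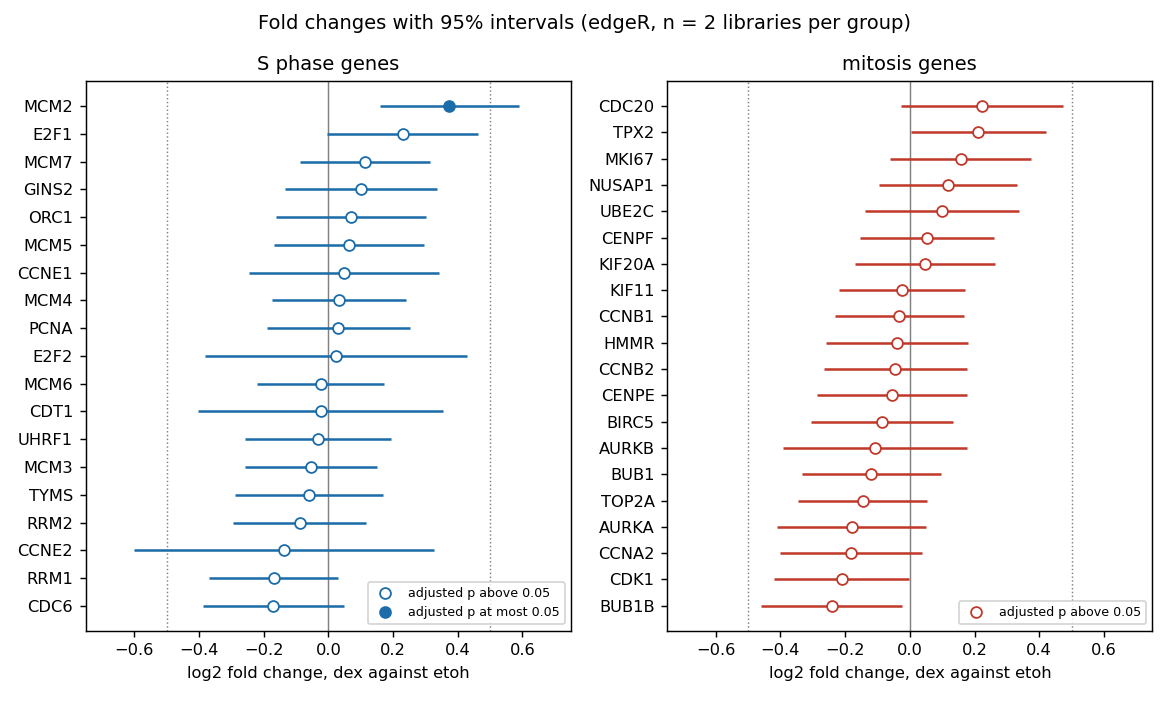
Log2 fold changes (dex against etoh, x axis) of the 19 S phase genes (left) and 20 mitosis genes (right), with 95% intervals from edgeR as bars; dotted lines mark ±0.5 and the filled point is the 1 called gene, MCM2. The bars of 37 genes lie between the dotted lines, and those of MCM2 and CCNE2 cross one.

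For the question of size, the 95% interval of each log2 fold change was read at its end farther from 0. In 37 of the 39 genes that end was within 0.5, a 1.41-fold difference in either direction; this held for 17 of 19 S phase genes and for 20 of 20 mitosis genes, and for 41.7% of all tested genes. Within 0.26, a 1.2-fold difference, lay 9 of the 39 genes and 4.78% of all tested genes, and within 1 lay all 39 and 79.5%. The median gene of the 39 had an outer end at 1.26-fold, and the widest, CCNE2, at 1.52-fold. The tightest limits were 1.16-fold for KIF11, the motor that pushes spindle poles apart, and 1.16-fold for MCM6, followed by 1.17-fold for CCNB1, cyclin B1. The intervals are relative to the other genes of the same libraries, so a change shared by all transcripts would not be seen. At the nominal 95% level, 1.95 of 39 intervals miss the true value on average. Whether the libraries came from separate cultures is not stated, so spread between cultures may be left out and more could miss it.

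The median half-width of the members' intervals was 0.22 on the log2 scale at a median level of 104 CPM, beside 0.32 at 18.9 CPM for all tested genes. Among the members the half-width was widest for the 3 least abundant, CCNE2, E2F2 and CDT1, which had between 6.82 and 14.1 CPM in any library. The half-width of PCNA, at 883 to 1055 CPM, was 0.22, no smaller than that of the median member.

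**Figure D2:**
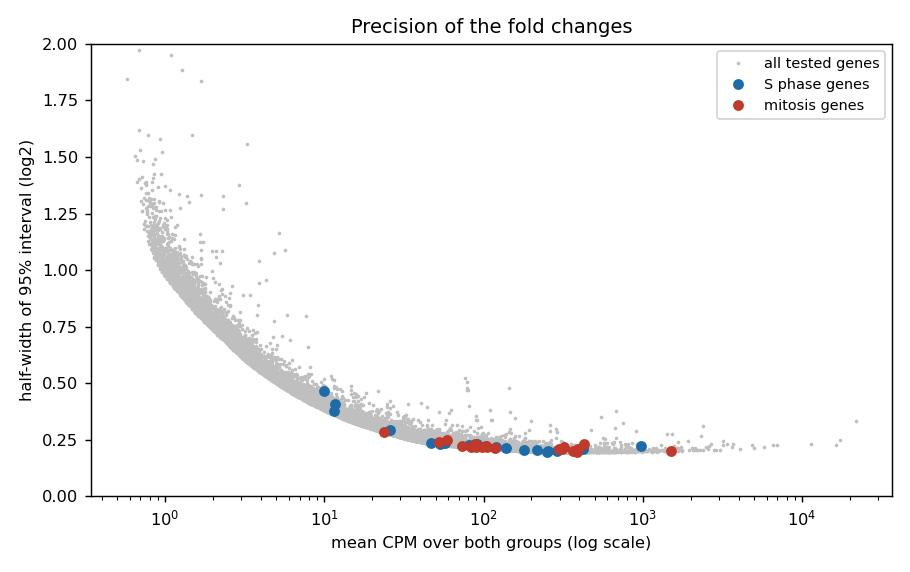
Half-width of the 95% interval of each log2 fold change (y axis) against mean CPM over both groups (x axis, log scale) for all tested genes (grey), S phase genes (blue) and mitosis genes (red). The half-widths level off near 0.2 above about 100 CPM, where most members lie; 5 genes lie above the axis top of 2 and 2 have no finite interval.

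MCM2 encodes a subunit of the MCM2 to MCM7 helicase, the ring that unwinds DNA at the fork. It had 157 and 151 CPM in dex libraries 1 and 2 and 112 and 130 CPM in etoh libraries 1 and 2. Both dex libraries were above both etoh libraries, and the etoh pair was the more spread. The log2 fold change was 0.37 (SE 0.10, 95% interval 0.16 to 0.59), with an adjusted p of 0.0193 by edgeR's quasi-likelihood test. The call was lost without dex replicate 1 (0.34, adjusted p = 0.0986) and without etoh replicate 1 (0.28, adjusted p = 0.286). It was also lost when the most abundant transcript stood for the gene (0.35, adjusted p = 0.087).

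Reads of MCM2 fell on 6 transcripts of the gene (ENSG00000073111; chr3:127598223-127622436, plus strand, GRCh38 in GENCODE 29), and 4 of them held nearly all. The most abundant, MCM2-001, had 49.6 and 43.9 CPM in dex and 34.4 and 40.5 CPM in etoh. MCM2-005 had 41.2 and 37.9 CPM in dex and 29.2 and 34.3 CPM in etoh, and MCM2-002 had 30.8 and 34.5 CPM in dex and 23.8 and 26.3 CPM in etoh. All of these, and MCM2-003, had both dex libraries above both etoh libraries. Transcripts of a gene share sequence and each read was taken as placed once, so these are not separate measurements of MCM2. MCM2 shares 45 exon bases with TPRA1, a neighbour on the opposite strand, which was itself higher in dex with 16.8 and 15.4 CPM, against 6.55 and 10.3 CPM in etoh (log2 fold change 0.94, adjusted p = 0.00179 by edgeR). The sources used here do not give the strand setting of the counts, so reads in those bases cannot be told apart. The difference of means (dex minus etoh) was 7.66 CPM for TPRA1 and 33.4 CPM for MCM2. How many reads counted for MCM2 came from TPRA1 was not tested.

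The other 5 subunits of the ring were not called. MCM4 had 451 and 401 CPM in dex and 438 and 408 CPM in etoh, and MCM6 had 250.4 and 241 CPM in dex and 252 and 255 CPM in etoh. MCM3, MCM5 and MCM7 had log2 fold changes of −0.05, 0.06 and 0.11, and their adjusted p-values were 0.53 or higher, those of MCM4 and MCM6 included. Their 5 levels summed to 1205 and 1125 CPM in dex and 1152 and 1172 CPM in etoh, a mean difference of 0.293% with overlapping groups. The upper ends of their intervals were 0.15 for MCM3, 0.24 for MCM4, 0.30 for MCM5, 0.17 for MCM6 and 0.31 for MCM7. Whether MCM2 differed from the other subunits was not tested. Levels per kilobase pool the 2 libraries of a group and divide the reads of all transcripts by the length of the most abundant one. In dex they ran from 16.3 CPM for MCM5 to 101 CPM for MCM4, with MCM2 at 42.6 CPM. In etoh they ran from 16.0 CPM for MCM5 to 101 CPM for MCM4, with MCM2 at 33.6 CPM. MCM7 overlaps exons of AP4M1 on the opposite strand, for which no call was made either.

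**Figure D3:**
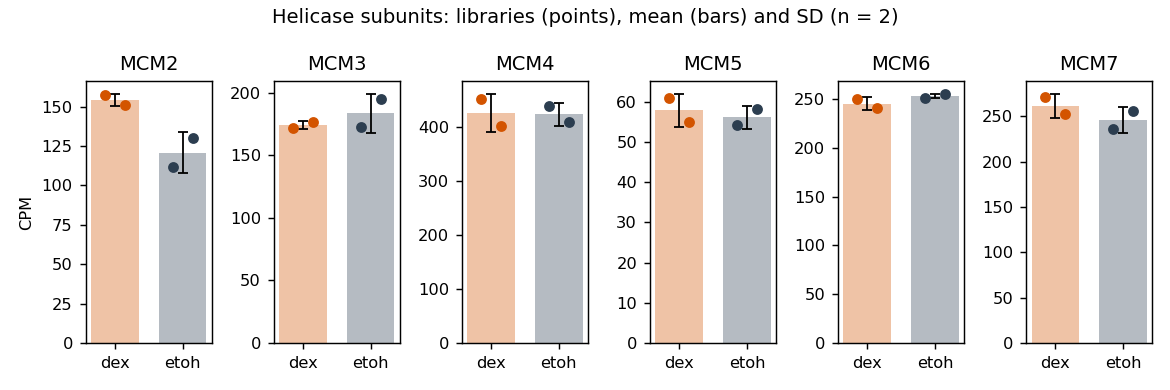
CPM (y axis, from 0, its own scale in each panel) of the 6 helicase subunits in dex (left bars) and etoh (right bars); points are libraries, bars are means and whiskers are SDs (n = 2). Both dex points are above both etoh points for MCM2; the groups overlap for MCM3, MCM4, MCM5 and MCM7, and for MCM6 dex sits just below etoh.

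Among the genes that license and fire origins, ORC1 marks the origin, CDC6 and CDT1 load the helicase and GINS2 belongs to the complex that activates it. CDC6 had 109 and 113 CPM in dex and 135 and 119 CPM in etoh. Its dex libraries were below both etoh libraries, but the difference of −0.17 (95% interval −0.39 to 0.05) did not pass the test (adjusted p = 0.351, edgeR). CDT1 had 10.2 and 12.6 CPM in dex and 12.7 and 10.9 CPM in etoh, with a limit of 1.32-fold. ORC1 and GINS2 had log2 fold changes of 0.07 and 0.10, with upper ends at 0.30 and 0.33.

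PCNA, the clamp that holds polymerases on DNA, was the most abundant S phase gene per kilobase. By the same pooled measure it had 721 CPM in dex and 727 CPM in etoh. Its libraries had 1044 and 903 CPM in dex and 883 and 1055 CPM in etoh, so a high and a low library stood in each group. UHRF1, which directs DNA methylation to new strands, had a difference of −0.03 with a limit of 1.19-fold. Of the nucleotide supply genes, RRM1, the large subunit of ribonucleotide reductase, had 262 and 280 CPM in dex and 320 and 298 CPM in etoh. Both RRM1 libraries of dex were below those of etoh, and the interval of −0.37 to 0.03 included 0. RRM2, its small subunit, differed by −0.09, and TYMS, thymidylate synthase, by −0.06. TYMS shares 967 exon bases with ENOSF1 on the opposite strand.

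The G1/S drivers include the transcription factors E2F1 and E2F2 and the cyclins E1 and E2. E2F1 had 63.1 and 56.9 CPM in dex and 50.1 and 53.8 CPM in etoh. Its groups did not overlap, and the difference of 0.23 (95% interval −0.0040 to 0.46) had an adjusted p of 0.222 by edgeR. E2F2 had 12.01 and 11.5 CPM in dex and 9.115 and 14.1 CPM in etoh, with both dex libraries between the etoh libraries. CCNE1 differed by 0.05 with a limit of 1.27-fold. CCNE2 had 6.82 and 11.8 CPM in dex and 11.8 and 9.25 CPM in etoh, and its interval of −0.60 to 0.33 was the widest of the 39. Its transcripts share 42.1% of their 50-base words with INTS8 on the opposite strand, which had 3977 reads in all against 423 for CCNE2. INTS8 had 80.8 and 95.7 CPM in dex and 107 and 90.2 CPM in etoh, and both genes had a log2 fold change of −0.14. How many reads counted for CCNE2 came from INTS8 was not tested, so the limit given for CCNE2 may not be its own.

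**Figure D4:**
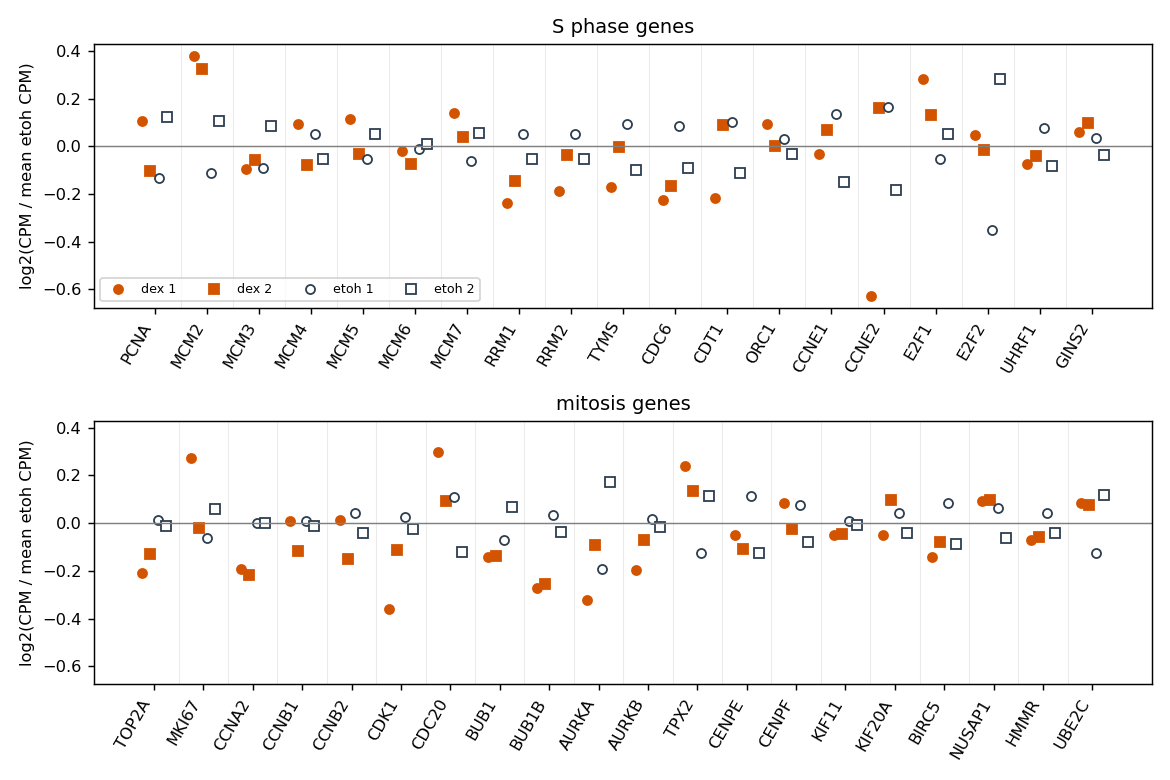
Level of each gene in each library as log2 of CPM over the mean CPM of etoh (y axis), for dex libraries (filled) and etoh libraries (open), S phase genes above and mitosis genes below. Both dex libraries lie above both etoh libraries in 5 genes, below both in 11, and the groups overlap in 23.

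Of the 20 mitosis genes 0 were called by edgeR, DESeq2 or limma-voom. At an unadjusted p under 0.05 by edgeR there were 1 higher and 2 lower, 15% of the list, against 23.6% of all tested genes. Of the mitotic cyclins, CCNA2 had 68.8 and 67.5 CPM in dex and 78.6 and 78.5 CPM in etoh. Each pair was tight, yet the difference of −0.18 (95% interval −0.40 to 0.04) was small beside the spread the fit assigns to such genes (adjusted p = 0.319, edgeR). CCNB1 and CCNB2, cyclins B1 and B2, differed by −0.03 and −0.04. Their kinase CDK1 had 251.1 and 298 CPM in dex and 328 and 317 CPM in etoh. Both dex libraries were lower, and the interval of −0.42 to −0.0015 just missed 0, with an adjusted p of 0.208.

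The spindle checkpoint holds anaphase until all chromosomes are attached. BUB1B, its kinase-like member BUBR1, had 80.6 and 81.6 CPM in dex and 99.9 and 94.97 CPM in etoh. This was the lowest fold change of the 39 at −0.24 (95% interval −0.46 to −0.02), with an adjusted p of 0.156 by edgeR. BUB1 had 92.5 and 92.8 CPM in dex and 97.4 and 107 CPM in etoh, a difference of −0.12. CDC20, which starts anaphase once the checkpoint is satisfied, had 67.9 and 58.7 CPM in dex and 59.5 and 50.7 CPM in etoh. Its difference of 0.22 had a limit of 1.39-fold, the widest among mitosis genes. UBE2C, the ubiquitin-conjugating enzyme of the complex that CDC20 activates, differed by 0.10.

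AURKA, a kinase of the spindle poles, had 365 and 427 CPM in dex and 398 and 513 CPM in etoh, and the groups overlapped. TPX2, which activates AURKA, had 434 and 403 CPM in dex and 337 and 397 CPM in etoh. Its interval of 0.0035 to 0.42 just missed 0, and its adjusted p was 0.203 by edgeR. AURKB and its partner BIRC5 (survivin) differed by −0.11 and −0.09. The kinetochore proteins CENPE and CENPF differed by −0.06 and 0.05. KIF11, KIF20A, NUSAP1 and HMMR, of the spindle and its midzone, lay between −0.04 and 0.12.

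TOP2A, which untangles sister chromosomes, was the most abundant mitosis gene, with 1380 and 1460 CPM in dex and 1608 and 1581 CPM in etoh. Both dex libraries were lower, and the interval was −0.35 to 0.05. MKI67, which coats mitotic chromosomes and is the usual marker of cycling cells, had 368 and 301 CPM in dex and 292 and 317 CPM in etoh. Dex library 1 stood above the other 3, and the difference of 0.16 had an adjusted p of 0.404 by edgeR.

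Both dex libraries were above both etoh libraries in 5 of the 39 genes (12.8%), against 24.6% of all tested genes. They were below in 11 (28.2%), against 28.8% of all tested genes. Of the 11, 8 were mitosis genes, 40.0% of that list. These counts use CPM on aligned totals, while the tests use TMM-scaled sizes, and they depend on that choice. On TMM-scaled sizes the groups of MCM6, KIF11 and HMMR overlap, and both MCM7 libraries of dex lie above those of etoh. The shares over all tested genes were not counted on those sizes. In 28 of the 39 genes the larger of the 2 gaps between replicates was at least as wide as the gap between the group means on the log2 scale. The median of that larger gap was 0.16, and the median gap between group means was 0.09. The larger of 2 gaps between single libraries tends to exceed a gap between means even without an effect. This comparison therefore cannot show that an effect is absent, and the same count over all tested genes was not made.

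The reads of the 20 mitosis genes summed to 4859 and 4890 CPM in dex and 5101 and 5168 CPM in etoh, a difference of −5.06% in dex relative to etoh, with a gap between replicates of 0.629% in dex and 1.31% in etoh. Without TOP2A the sums were 3479 and 3430 CPM in dex and 3492 and 3586 CPM in etoh, a difference of −2.40%, or −0.872% with TMM-scaled sizes. With TMM-scaled library sizes the difference of the 20 genes was −3.59%. The sum of the 19 S phase genes was 3355 and 3184 CPM in dex and 3232 and 3361 CPM in etoh, so the groups overlapped. The mean difference was −0.812% on aligned totals and 0.76% on TMM-scaled sizes, so its sign turned with the scaling. With 2 libraries a group, the smallest p an exact two-sided permutation test of a sum can give is 0.333, so none was run. By role, the summed means on aligned totals differed by −9.59% for nucleotide supply, −8.75% for mitotic cyclins with CDK1 and −7.66% for chromosome structure. Chromosome structure holds only TOP2A and MKI67, whose means differed by −175 and 29.6 CPM (dex minus etoh). Origin licensing and firing differed by −5.11% and checkpoint and anaphase genes by −4.82%. For origin licensing and firing the groups overlapped, with 222 and 227 CPM in dex and 247 and 226 CPM in etoh. The G1/S drivers differed by 7.39%, and the rest were nearer 0: −1.93% for the Aurora kinases and partners, −0.94% for spindle and midzone, 0.473% for the kinetochore and 0.111% for PCNA with UHRF1. With TMM-scaled sizes the sign turned for spindle and midzone (0.571%) and for no other role.

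Of the 39 genes 6 had a single transcript and 33 had several. Among those 33, the share of reads on the most abundant transcript differed between the groups by a median of 0.703 percentage points. How reads that match several transcripts of a gene were divided is not stated, so these shares are not measures of isoform abundance. The extremes were CCNE1 at −3.785 points and ORC1 at 4.60 points (dex minus etoh), beside largest gaps between replicates of 5.52 points for CCNE1 and 3.98 points for ORC1. Exons of 10 members (MCM2, MCM7, RRM1, TYMS, CCNE2, GINS2, CCNA2, BUB1B, KIF20A and HMMR) overlap another counted gene, and their counts are less certain for it. BUB1B shares 457 bases with RP11-133K1.2 on the same strand.

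A RefSeq promoter window of 250 bases before to 50 after the start was matched for 16 S phase and 16 mitosis genes. The E2F element was found in 15 of 16 S phase windows (93.8%) and 5 of 16 mitosis windows (31.3%), against 44.4% of the windows of 9812 tested genes. The CHR was found in 1 of 16 (6.25%) and 10 of 16 (62.5%), against 13.99%. CCAAT was found in 11 of 16 S phase windows (68.8%) and 14 of 16 mitosis windows (87.5%), against 43.3%. The palindromic consensus of the glucocorticoid response element matched none of the 32 windows and 0.336% of those of tested genes. These are counts of letters in a short window and say nothing about binding.

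**Figure D5:**
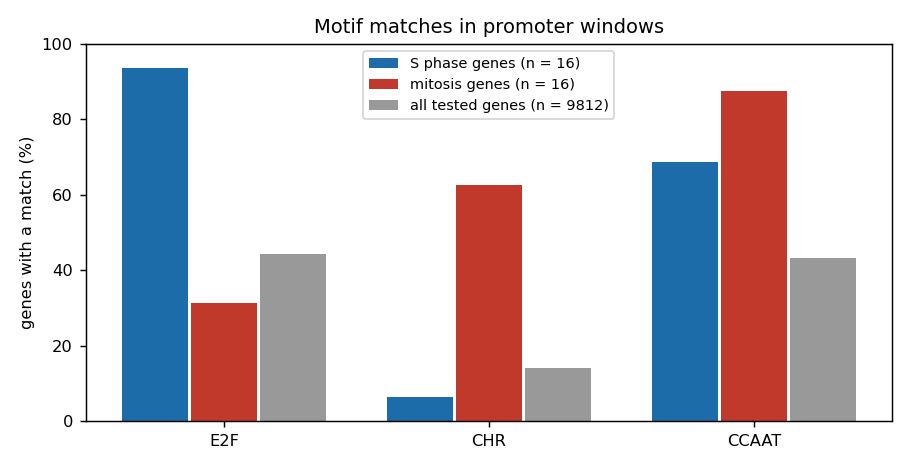
Percent of genes (y axis, from 0) with a match to the E2F, CHR and CCAAT elements in their promoter window, for S phase genes (n = 16), mitosis genes (n = 16) and all tested genes (n = 9812). E2F matches are in 93.8% of S phase windows and CHR matches in 62.5% of mitosis windows.

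Other genes of the same processes were counted from named lists. Of 50 other replication genes tested, 7 fell and 0 rose by edgeR, beside 4.34% called lower and 7.12% called higher among all tested genes. Their median was −0.08, and at an unadjusted p under 0.05 there were 4 higher and 16 lower, 40% of the list. Among all 14716 tested genes 1926 were higher and 1547 lower at that threshold, 23.6%. DESeq2 called 0 higher and 4 lower at an adjusted p of 0.05. POLE2, a subunit of the leading-strand polymerase, had 12.1 and 13.2 CPM in dex and 22.4 and 21.7 CPM in etoh (−0.78, adjusted p = 0.00115, edgeR). EXO1, a nuclease of mismatch repair, had 45.3 and 47.6 CPM in dex and 69.0 and 67.6 CPM in etoh (−0.53, adjusted p = 0.00169). Both groups of libraries were tight and far apart, and both calls held in each alternative. PRIM1, which makes RNA primers, fell by 0.54, a call lost without dex replicate 1 (−0.34, adjusted p = 0.186) and with the most abundant transcript (−0.44, adjusted p = 0.0669). RFC3 and RFC5, of the clamp loader, the kinase activator DBF4 and the origin subunit ORC4 fell by 0.34 to 0.37; each of these calls was lost in several alternatives. The number that fell was 2 without dex replicate 1, 3 without etoh replicate 1, 3 with the most abundant transcript, 4 with the replicate block and 10 without dex replicate 2.

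Of 53 other mitotic genes tested, 1 rose and 3 fell, with a median of −0.03, beside 7.12% called higher and 4.34% called lower among all tested genes. The number that fell was 1 without dex replicate 1, 2 with DESeq2, the replicate block, the most abundant transcript or without etoh replicate 1, and 6 without dex replicate 2. KIF18A, a motor that dampens chromosome movement, had 86.6 and 78.1 CPM in dex and 118 and 126 CPM in etoh (−0.54, adjusted p = 0.00106, edgeR). ECT2, which starts cytokinesis, fell by 0.48 and CDCA8, a partner of AURKB, by 0.38. SPC24, of the outer kinetochore, rose by 0.59. The call of ECT2 was lost without dex replicate 1 (adjusted p = 0.0559) and that of SPC24 without etoh replicate 1 (adjusted p = 0.0764), while CDCA8 was lost in several alternatives.

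Of 33 tested genes of cell cycle control, 3 rose and 4 fell, with a median of −0.06, beside the same 7.12% and 4.34%. The number that fell was 1 with DESeq2, with the most abundant transcript, without dex replicate 1 or without etoh replicate 1, and 2 with the replicate block. CDKN1C, the inhibitor p57, had 9.77 and 8.89 CPM in dex and 0.205 and 0.589 CPM in etoh, a log2 fold change of 4.47 (95% interval 3.40 to 5.55; adjusted p = 7.29e-09, edgeR). Its etoh values rest on 2 and 7 reads, against 96 and 99 reads in dex, so the size is loosely set: the log2 fold change was 3.99 without etoh replicate 1 and 5.43 without etoh replicate 2. CDKN1A, the inhibitor p21, had 162 and 157 CPM in dex and 58.5 and 74.1 CPM in etoh (1.29, adjusted p = 2.19e-08). Both inhibitors block cyclin-dependent kinases, and both were far outside the spread of the libraries. CCND1, cyclin D1, rose by 0.34, and CCND3, cyclin D3, fell by 0.57. E2F5, E2F3 and CDK6, the cyclin D kinase, fell by 0.41, 0.40 and 0.31. The call of CCND1 was lost without etoh replicate 2 (0.28, adjusted p = 0.179) and without dex replicate 2 (0.31, adjusted p = 0.0834), and with the replicate block (adjusted p = 0.0567). Those of E2F3 and CDK6 were lost without dex replicate 1, without etoh replicate 1, with DESeq2 (adjusted p = 0.109 for E2F3 and 0.0628 for CDK6) and with the most abundant transcript, and that of CDK6 also with the replicate block (adjusted p = 0.105). The call of E2F5 was lost without each library in turn (adjusted p from 0.0568 to 0.117), with DESeq2 (adjusted p = 0.106), with the most abundant transcript (0.0994) and with the replicate block (0.0507).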

How the data were processed

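Per the labels' protocols, RNA was column-extracted with a DNase step and mRNA libraries were prepared on an automated platform. Raw read counts were deposited, listed by the authors per transcript (119207 transcripts with GENCODE-style names) beside each transcript's length. The tools were Bowtie, SAMtools, CASAVA and DESeq2, per the submitters' processing notes; the sources used here give no version, genome build or strand setting. Unaligned reads (17.2% to 18.7%) stayed out of library sizes and tests.

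Counts were summed per gene symbol. Of 23 values for pairs of transcripts with identical sequence, 1 was equal, so each read was taken as placed once. In R 4.3.3 with edgeR 4.0.16, genes were kept by filterByExpr (minimum count 10), scaled by TMM on aligned totals and tested by the quasi-likelihood test, two-sided, with a prior count of 0.125 and Benjamini-Hochberg adjustment over 14716 genes; the BCV was 8.07%. The SE came from the fitted information and the moderated dispersion, and the 95% interval from t quantiles. The code was tested on simulated data. SDs are over 2 libraries.

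The named genes are all 39 members, every called gene of the other lists and 3 known glucocorticoid targets. Members, lists and motifs were chosen with earlier results of these data known. The alternatives were DESeq2 1.42.0 and limma 3.58.1 (voom) as tests, other scalings and filters, a robust fit, the replicate block, an adjusted p of 0.01, the most abundant transcript and removal of each library. A group left with 1 library was given the spread of the other. Positions came from GENCODE 29 (38 of 39 members) and promoters from RefSeq GRCh38.p14 (32 of 39), while the files' own build is not named.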

Additional observations from a re-analysis of the deposited data

How the results depend on the processing

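Across the 14 other planned fits, no member other than MCM2 was called, and the log2 fold changes of those 38 lay between −0.59 and 0.37. With the unplanned replicate block of crossed numbers counted as well, 21 of the 38 changed sign in at least 1 of 15 fits. MCM2 kept its direction (0.28 to 0.47) and was called in 11 of the 14. The members called higher numbered 0 with the most abundant transcript and 0 at an adjusted p of 0.01, and from 0 to 1 with a library left out; those called lower numbered 0 in each planned fit. The genes called over all tested genes numbered 1038 with DESeq2, 1013 at an adjusted p of 0.01 and from 1100 to 2004 with a library left out. The median of the S phase genes was 0.0031 with upper-quartile factors, 5.4e-05 on aligned totals, −0.013 with the most abundant transcript and from −0.034 to 0.052 with a library left out, where that of the mitosis genes ran from −0.066 to 0.0047. The genes with an interval within 0.5 numbered 33 with DESeq2, 32 with the most abundant transcript and from 28 to 35 with a library left out. The differences between replicates 1 and 2 correlated at −0.14 between the groups over all tested genes, and nothing in the labels pairs the libraries; with the replicate block, 1562 genes, 1 member higher and 0 lower were called, and 35 intervals lay within 0.5. With the numbers crossed in the replicate block, chosen after seeing the data, 2819 genes, 2 members higher and 2 lower were called. The causes of these shifts were not tested, beyond fewer libraries or reads in the fits that drop them. With 2 libraries in each group the median half-width of the members' intervals was 1.16-fold, 34 of 39 were under 0.26 on the log2 scale, and intervals cover the spread between these libraries only.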
